A study of Mus musculus with 4 samples.

Results

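The genes described here encode the glycosyltransferases of the Golgi apparatus that build and cap the sugar chains of glycoproteins and glycolipids, in resting CD4+ T cells of the mouse spleen with and without the Ifitm genes. Members were taken by gene symbol alone, as symbols that start with St3gal, St6gal, St6galnac, St8sia, Galnt, B3gnt, B3galt, B4galt, Mgat, Gcnt or Fut and go on with a number, with St6galnac2 left out. Of 19937 genes that a probe set named alone, 78 were members, and a member with several probe sets was represented by the one of highest mean. The 19 sialyltransferases were 6 St3gal, 2 St6gal, 5 St6galnac and 6 St8sia genes, and the other 59 members were 17 Galnt, 11 Mgat, 8 B3gnt, 7 Fut, 6 B4galt, 5 B3galt and 5 Gcnt genes.

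Expression was measured on 4 whole-transcript arrays (Affymetrix Mouse Gene 1.0 ST), 2 of Ifitm-/- cells, from mice in which the whole Ifitm gene family is deleted, and 2 of wild-type (WT) cells. All mice were 6 to 8 weeks old and gave CD4+ T cells by negative selection from spleen after ammonium chloride lysis of red cells. Per the study, cells of a pair of mice were pooled for each array and the replicates were separate purifications, so the spread between arrays does not show that between single mice. The comparison asks how the resting transcriptome differs when the interferon-inducible transmembrane proteins are missing.

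Sugar chains are built in the Golgi by enzymes that act one after another, each adding 1 sugar to what the previous enzyme left. Polypeptide N-acetylgalactosaminyltransferases (Galnt) start mucin-type O-glycans, Gcnt enzymes branch them, Mgat enzymes branch N-glycans, B4galt, B3galt and B3gnt enzymes extend the branches, and sialyltransferases and fucosyltransferases cap them. On T cells these chains carry ligands for selectins, galectins and Siglecs, and sialylation of surface glycoproteins is known to change as T cells become activated.

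Deposited values were normalized intensities of the robust multi-array average (RMA), and every level below is the log2 of such an intensity. Every change is a difference of levels, Ifitm-/- minus WT. A call means an adjusted p under 0.05 in limma's moderated test over all 34760 probe sets, with Benjamini-Hochberg adjustment. Arrays of a genotype correlated at 0.991 for Ifitm-/- and 0.993 for WT, against 0.976 to 0.979 between genotypes. The deleted gene Ifitm3 had levels of 4.61 and 4.36 in Ifitm-/- cells, against 9.26 and 8.91 in WT cells. The RNA Xist, which silences an X chromosome in female cells, had levels of 4.86 and 4.43 in Ifitm-/- cells, against 11.32 and 11.25 in WT cells, and 3 Y-linked genes (Kdm5d, Eif2s3y and Uty) had levels of 8.32 to 9.61 in Ifitm-/- cells, against 3.90 to 4.82 in WT cells. Sex and genotype therefore cannot be told apart in any comparison below, although none of the 78 members lies on X or Y. In bulk RNA, fewer cells of a type and less RNA per cell cannot be told apart either.

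Between genotypes, 8 of the 78 members were called (10.3%), 7 of them higher and 1 lower in Ifitm-/- cells. Among all probe sets 8.43% were called, and among all 19937 genes 8.57%, 4.96% higher and 3.61% lower, so the members' share lay near that of all genes. Of the 7 that were higher, 5 were sialyltransferase genes, namely St3gal5, St6galnac1, St3gal1, St8sia4 and St8sia6, and the others were the galactosyltransferase gene B3galt4 and the fucosyltransferase gene Fut11. The member that was lower was Mgat5, which encodes the N-acetylglucosaminyltransferase that starts the beta-1,6 branch of N-glycans. Changes of the 8 were 1.40-fold to 1.95-fold. None of the members passed a further fold of over 2 with a range of at least 250 linear units, the filter of the study's methods, which 1.28% of genes passed.

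Over all 78 members the median change was 0.01, against -0.02 over all genes, with 41 members positive and 37 negative, and changes ran from -0.56 to 0.96. Groups did not overlap in 29 members with both Ifitm-/- arrays above both WT arrays (27.9% of all genes did so) and in 23 with both below (30.8% of all genes), while 26 overlapped. At an unadjusted p under 0.05 there were 29 members, 18 higher and 11 lower, and 25.8% of all genes passed. All 8 called members were among the 43 whose mean level was at or above 6.26, the median over all probe sets. Of all 1708 called genes, 1599 were at or above that level too. There 18.6% of members were called, against 15.2% of all genes at such levels, and in the higher direction 16.3% of members, against 8.72% of those genes (lower, 1 member, against 6.52% of those genes). None of the 35 dimmer members was called by limma, at levels where few of all genes were called, and 3 of the 35 had an unadjusted p under 0.05.

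These calls rest on 2 arrays per genotype. When any 1 array was left out, or when the replicate number entered as a block, limma called none of the 34760 probe sets after adjustment, and 15 to 23 members had an unadjusted p under 0.05 in those fits. All 8 members kept their direction in each of them, an outcome fixed in advance that lends the calls no support. Their groups do not overlap, so leaving out 1 array cannot turn the sign, and the block leaves the change as it was.

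**Figure D1:**
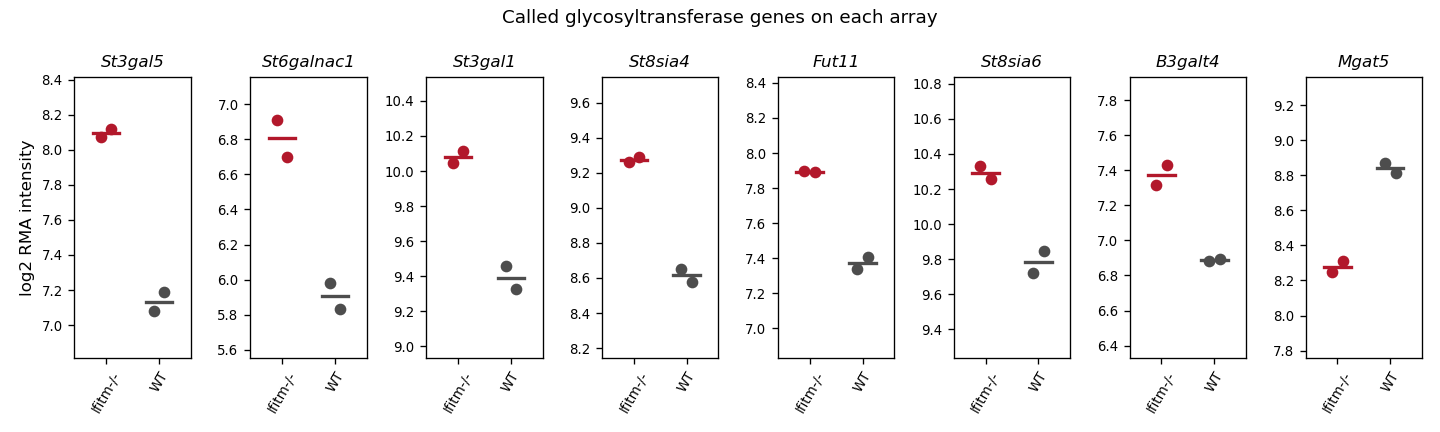
Level (log2 RMA intensity) of the 8 called members on each array, with Ifitm-/- arrays in red on the left, WT arrays in grey on the right and a bar at each mean of 2 arrays. The vertical axes have different starts and 1 common span, and in each panel both Ifitm-/- arrays lie on 1 side of both WT arrays, above in 7 genes and below in Mgat5.

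Promoter sequences from RefSeq (assembly GRCm38.p6, 250 bases before to 50 after the gene start) were matched for 58 of the 78 members and for 6 of the 8 called ones. They are shown for 3 called sialyltransferase genes and for Mgat5, so that genes that moved in opposite directions can be set side by side. Each is written 5′ to 3′ on the strand of the gene, and capitals mark the CCAAT box (CCAAT, or ATTGG on the other strand), which the factor NF-Y is known to bind, and the GC box (GGGCGG or CCGCCC), which Sp family factors are known to bind.
St3gal5 promoter (GRCm38.p6 chr6:72097358-72097657, plus strand): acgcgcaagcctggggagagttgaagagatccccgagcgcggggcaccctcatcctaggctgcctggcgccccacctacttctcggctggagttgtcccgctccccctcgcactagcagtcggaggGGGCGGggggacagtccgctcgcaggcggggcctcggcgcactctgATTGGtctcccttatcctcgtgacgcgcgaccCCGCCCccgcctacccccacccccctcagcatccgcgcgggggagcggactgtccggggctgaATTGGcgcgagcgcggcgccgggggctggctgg
St8sia4 promoter (GRCm38.p6 chr1:95667545-95667844, minus strand): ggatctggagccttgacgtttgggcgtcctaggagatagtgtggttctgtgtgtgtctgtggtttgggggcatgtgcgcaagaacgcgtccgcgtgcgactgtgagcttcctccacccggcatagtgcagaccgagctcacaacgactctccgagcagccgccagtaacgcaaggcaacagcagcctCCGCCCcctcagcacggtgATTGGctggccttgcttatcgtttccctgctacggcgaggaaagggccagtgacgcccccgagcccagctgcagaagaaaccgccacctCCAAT
St8sia6 promoter (GRCm38.p6 chr2:13793471-13793770, minus strand): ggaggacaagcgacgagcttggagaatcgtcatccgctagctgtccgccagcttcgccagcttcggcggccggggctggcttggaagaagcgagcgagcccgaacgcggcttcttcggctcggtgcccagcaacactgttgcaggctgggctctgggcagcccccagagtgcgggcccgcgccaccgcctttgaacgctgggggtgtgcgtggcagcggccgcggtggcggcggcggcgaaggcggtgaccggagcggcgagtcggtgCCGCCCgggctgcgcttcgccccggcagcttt
Mgat5 promoter (GRCm38.p6 chr1:127204736-127205035, plus strand): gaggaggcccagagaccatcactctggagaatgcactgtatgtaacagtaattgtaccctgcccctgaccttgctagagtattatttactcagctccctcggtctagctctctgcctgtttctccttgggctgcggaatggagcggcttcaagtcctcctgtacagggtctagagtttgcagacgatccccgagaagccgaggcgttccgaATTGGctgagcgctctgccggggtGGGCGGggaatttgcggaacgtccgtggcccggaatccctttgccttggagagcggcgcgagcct
The St3gal5 window held 2 CCAAT boxes and 2 GC boxes, that of St8sia4 held 2 and 1, that of St8sia6 held 0 and 1, and that of Mgat5 held 1 and 1, with 0 bases shared between the motifs. A GC box stood in all 6 windows of called members, in 52.4% of the 84 windows of members and in 35.7% of all 32851 promoter windows. A CCAAT box stood in 4 of the 6, in 33.3% of the members' windows and in 37.4% of all windows. The motifs were chosen with the sequences in view, the GC box stood in windows of higher and lower genes alike, and a match describes letters only.

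The St3gal enzymes attach sialic acid to galactose through an alpha-2,3 bond, and 2 of the 6 genes were higher in Ifitm-/- cells. Over all genes 4.96% were higher, and 8.72% of those at or above the median level, as all 6 were. St3gal5 encodes the synthase of GM3, the ganglioside from which more complex gangliosides are made. Its levels were 8.07 and 8.12 in Ifitm-/- cells, against 7.08 and 7.19 in WT cells. The change of 0.96 (SE 0.09, n = 2 per genotype), or 1.95-fold, had an adjusted p of 0.0161, the smallest among the members, and the gap between the groups was far wider than the spread within either.

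St3gal1 encodes the enzyme that caps the core 1 O-glycan and thereby keeps it from being branched. Its levels were 10.04 and 10.11 in Ifitm-/- cells, against 9.46 and 9.33 in WT cells, a change of 0.69 (SE 0.09) or 1.61-fold (adjusted p = 0.029). A second probe set for St3gal1 was much dimmer and did not show the change. It read 6.54 and 6.57 in Ifitm-/- cells, against 6.62 and 6.76 in WT cells, a change of -0.13 (adjusted p = 0.417). Averaged over both probe sets, the change of St3gal1 was 0.28 and the call was lost (adjusted p = 0.071).

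The other 4 St3gal genes were not called, and 3 of the 4 had positive changes. St3gal6 and St3gal4, whose products sialylate lactosamine ends and contribute to selectin ligands, differed by 0.42 (95% interval 0.16 to 0.67, adjusted p = 0.0771) and 0.13 (-0.11 to 0.36, adjusted p = 0.433). St3gal2, which acts on core 1 chains and on gangliosides, differed by 0.36 (0.12 to 0.60, adjusted p = 0.0931), and St3gal3 by -0.12 (-0.39 to 0.15, adjusted p = 0.517). The median change of the family was 0.39, against -0.02 over all genes and 0.03 over genes at or above the median level. In 5 of the 6 genes both Ifitm-/- arrays lay above both WT arrays. This held in 27.9% of all genes and in 4125 of the 10494 at or above the median level.

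St6galnac enzymes attach sialic acid to N-acetylgalactosamine through an alpha-2,6 bond, and 1 of the 5 members was higher (4.96% of all genes were). St6galnac1 encodes the enzyme that makes the sialyl-Tn antigen, a short O-glycan that cannot be extended further. Its levels were 6.91 and 6.70 in Ifitm-/- cells, against 5.98 and 5.83 in WT cells. The change of 0.90 (SE 0.11), or 1.87-fold, was called (adjusted p = 0.0269). St6galnac1 was dim in WT cells, with 44.7% of all probe sets below it on the WT replicate 1 array and 41.6% on the other, and its fold may therefore be a lower bound.

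St6galnac1 lies next to St6galnac2 on chromosome 11 in the gene table of GRCm38.p6. St6galnac2, which the symbol rule left out, had levels of 9.81 and 9.37 in Ifitm-/- cells, against 7.44 and 6.66 in WT cells (change 2.54, adjusted p = 0.026). Both genes of this pair were thus higher in Ifitm-/- cells. In the other neighbouring pairs of the family neither gene was called, with changes of -0.34 and 0.02 for St6galnac4 and St6galnac6 on chromosome 2 and of 0.01 and -0.27 for St6galnac5 and St6galnac3 on chromosome 3. St6galnac4, which adds sialic acid to already sialylated core 1 chains, had the highest mean of the family, with levels of 7.69 and 7.94 in Ifitm-/- cells, against 8.19 and 8.11 in WT cells, and missed the threshold (95% interval of the change -0.66 to -0.03, adjusted p = 0.164).

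The St8sia enzymes join sialic acids to each other through alpha-2,8 bonds, and 2 of the 6 genes were higher (4.96% of all genes were). St8sia4 encodes a polysialyltransferase, which builds long sialic acid chains on a small number of carrier proteins. Its levels were 9.26 and 9.29 in Ifitm-/- cells, against 8.65 and 8.58 in WT cells, a change of 0.66 (SE 0.08) or 1.58-fold (adjusted p = 0.0255). St8sia6 encodes an enzyme that makes short disialic acid ends, mainly on O-glycans. St8sia6 read 10.33 and 10.26 in Ifitm-/- cells, against 9.72 and 9.85 in WT cells, a change of 0.51 (SE 0.09) or 1.42-fold (adjusted p = 0.047), just inside the threshold. St8sia1, the synthase of the ganglioside GD3, lay at 9.61 and 9.62 in Ifitm-/- cells and 9.47 and 9.55 in WT cells, a change of 0.11 (95% interval -0.10 to 0.33, adjusted p = 0.453). St8sia2, St8sia3 and St8sia5 were below the median level.

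St6gal1 encodes the enzyme that caps N-glycans with alpha-2,6 sialic acid, the ligand of the B cell Siglec CD22. Its levels of 10.41 and 10.29 in Ifitm-/- cells lay above those of 10.23 and 10.04 in WT cells, but by no more than the spread allowed (change 0.21, 95% interval -0.08 to 0.50, adjusted p = 0.301). Over all 19 sialyltransferase genes, 5 were higher and none lower by limma (26.3%, where 4.96% of all genes were higher and 8.72% of those at or above the median level, as 14 of the 19 were), the median change was 0.11, against -0.02 over all genes, and 15 changes were positive and 4 negative. Both Ifitm-/- arrays lay above both WT arrays in 11 of the 19 (27.9% of all genes) and below in 2 (30.8% of all genes). The groups overlapped in 6. Of the 14 at or above the median level, 10 lay above and 2 below, as did 4125 and 3355 of all 10494 genes at such levels. Of the other 59 members, 2 were higher (4.96% of all genes) and 1 was lower (3.61% of all genes), with a median of -0.03. No test between these sets was made.

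**Figure D2:**
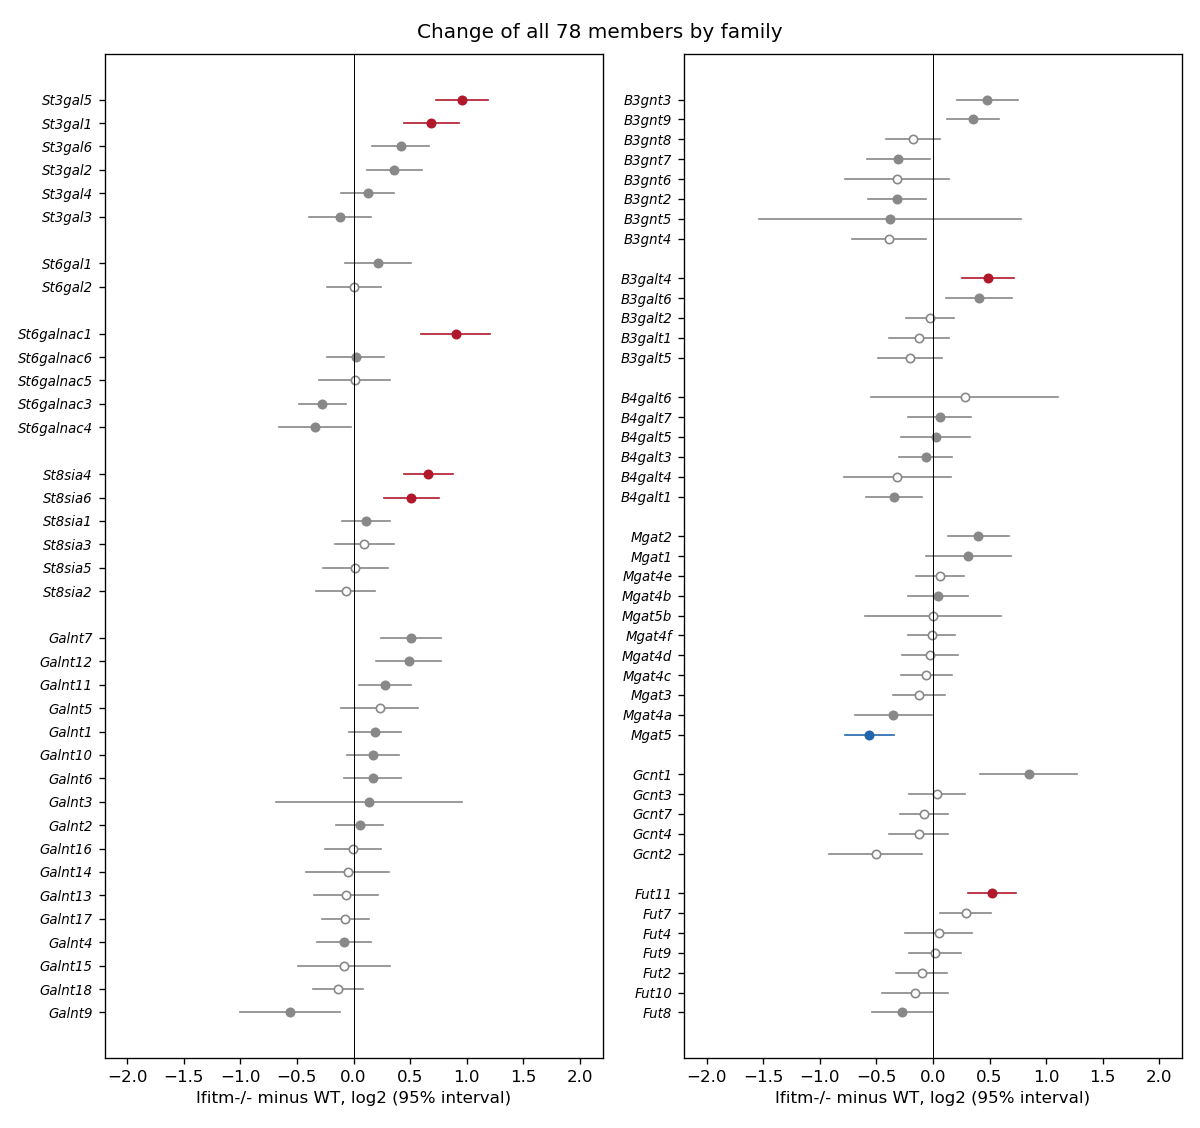
Change of each of the 78 members (log2, Ifitm-/- minus WT) with its 95% interval from limma, grouped by family and ordered by change within it. Red points were called higher in Ifitm-/- cells, blue lower and grey not called, and open points mark members whose mean level was below the median of all probe sets. Called genes stand in St3gal, St6galnac, St8sia, B3galt, Fut and Mgat, and no Galnt, B3gnt, B4galt, Gcnt or St6gal gene was called.

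Mgat enzymes set how many branches an N-glycan carries, and the 11 Mgat genes had a median change of -0.01. Mgat5 makes the branch on which polylactosamine is preferentially built, and loss of Mgat5 in mice is known to lower the activation threshold of T cells. Its levels were 8.25 and 8.31 in Ifitm-/- cells, against 8.87 and 8.81 in WT cells. The change of -0.56 (SE 0.08), 1.48-fold lower in Ifitm-/- cells, had an adjusted p of 0.0331, and arrays of a genotype lay within 0.1 of each other.

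Genes of the earlier branching steps differed less clearly. Mgat2, which starts the second antenna, read 8.94 and 8.78 in Ifitm-/- cells, against 8.52 and 8.40 in WT cells (change 0.40, 95% interval 0.13 to 0.67, adjusted p = 0.0922). Mgat1, which starts complex N-glycans, differed by 0.31 (-0.06 to 0.69, adjusted p = 0.255), and Mgat4a, which adds the beta-1,4 branch, by -0.35 (-0.69 to -0.01, adjusted p = 0.178). Intervals this wide leave changes of the size of that of Mgat5 possible for Mgat2, Mgat1 and Mgat4a.

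Among O-glycan genes, none of the 17 Galnt and 5 Gcnt genes was called by limma (8.57% of all genes were). At an unadjusted p under 0.05 there were 4 and 2 of them (25.8% of all genes). Gcnt1, which makes the core 2 branch that competes with capping by St3gal1, had one of the largest changes of all members. Its levels were 6.99 and 7.39 in Ifitm-/- cells, against 6.39 and 6.30 in WT cells. The change of 0.84 (95% interval 0.42 to 1.27) just missed the threshold (adjusted p = 0.0521), with groups that did not overlap and a wider spread between the Ifitm-/- arrays than between the WT arrays. Gcnt1 was called with trend eBayes (adjusted p = 0.0458) and with renewed quantile normalization (adjusted p = 0.0451). Leaving out dim probe sets (adjusted p = 0.0304) or testing only probe sets of 1 gene (adjusted p = 0.0253) also gave the call. Gcnt1 stayed uncalled with robust eBayes (adjusted p = 0.0532), median centring (adjusted p = 0.0506) and log2(value + 16) (adjusted p = 0.0515). Gcnt2, which branches polylactosamine into I antigen, was dim, at 5.71 and 5.77 in Ifitm-/- cells, against 6.44 and 6.05 in WT cells (adjusted p = 0.131).

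Galnt enzymes share the first step of O-glycosylation and differ in the peptides they prefer. Galnt7, which acts on peptides that already carry a sugar, read 8.79 and 8.81 in Ifitm-/- cells, against 8.38 and 8.19 in WT cells (change 0.51, 95% interval 0.24 to 0.78, adjusted p = 0.0561). Galnt12 read 8.03 and 8.26 in Ifitm-/- cells, against 7.67 and 7.65 in WT cells (change 0.49, 0.20 to 0.77, adjusted p = 0.0712). Both genes had all Ifitm-/- values above all WT values without passing the threshold. Galnt9 went the other way, at 6.96 and 6.68 in Ifitm-/- cells, against 7.22 and 7.55 in WT cells (change -0.56, SE 0.16, adjusted p = 0.123). Galnt6, the Galnt gene of highest mean, read 9.78 and 9.68 in Ifitm-/- cells, against 9.50 and 9.62 in WT cells (change 0.17, -0.08 to 0.42, adjusted p = 0.334). Leaving out dim probe sets brought Galnt7 and Galnt12 under the threshold (adjusted p = 0.0311 and 0.0403). With trend eBayes Galnt7 was called too (adjusted p = 0.0432), and Galnt12 was not (adjusted p = 0.0626). Both stayed uncalled with robust eBayes, renewed quantile normalization and median centring (adjusted p = 0.052 to 0.0725).

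Of the galactosyltransferases, B3galt4 was the only called gene of its 5-member family (8.57% of all genes were called). It encodes the enzyme that turns the ganglioside GM2 into GM1. Its levels were 7.32 and 7.43 in Ifitm-/- cells, against 6.88 and 6.90 in WT cells, a change of 0.49 (SE 0.09) or 1.40-fold (adjusted p = 0.0459), close to the threshold. B3galt6, which builds the linker of proteoglycans, differed by 0.41 (95% interval 0.12 to 0.70, adjusted p = 0.103). No B4galt gene was called by limma, and 1 of the 6 had an unadjusted p under 0.05 (25.8% of all genes did). That gene was B4galt1, which adds the galactose of lactosamine and had the highest mean of the family. B4galt1 read 10.17 and 10.02 in Ifitm-/- cells, against 10.43 and 10.45 in WT cells (change -0.35, -0.59 to -0.10, adjusted p = 0.103).

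B3gnt enzymes add N-acetylglucosamine to galactose and so lengthen lactosamine chains. None of the 8 was called by limma, and 5 had an unadjusted p under 0.05 (25.8% of all genes did). Of the 8 changes, 6 were negative, with a median of -0.31. B3gnt2, the main polylactosamine synthase, read 8.71 and 8.54 in Ifitm-/- cells, against 8.95 and 8.94 in WT cells (change -0.32, 95% interval -0.57 to -0.06, adjusted p = 0.132). B3gnt3, which extends core 1 O-glycans, went the other way. It read 6.50 and 6.57 in Ifitm-/- cells, against 6.15 and 5.96 in WT cells (change 0.48, 0.21 to 0.75, adjusted p = 0.0646), and was called when dim probe sets were left out (adjusted p = 0.0358) but not with robust eBayes, renewed quantile normalization or median centring (adjusted p = 0.0592 to 0.066). The sign of the members' changes thus differed within 1 family of like enzymes.

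Fucosyltransferases close many of these chains. Fut11, a less studied member of the family, had levels of 7.90 and 7.89 in Ifitm-/- cells, against 7.34 and 7.41 in WT cells, a change of 0.52 (SE 0.08) or 1.43-fold (adjusted p = 0.0371). A second, dimmer probe set of Fut11 read 6.28 and 6.84 in Ifitm-/- cells, against 6.19 and 5.92 in WT cells, a change of 0.50 that was not called (adjusted p = 0.254), and the average of both just missed the threshold (0.51, adjusted p = 0.0508). Both probe sets therefore gave a like change. Fut8, which adds the core fucose of N-glycans, read 7.77 and 7.83 in Ifitm-/- cells, against 8.16 and 7.98 in WT cells (95% interval of the change -0.54 to -0.00, adjusted p = 0.185). Fut7, which completes sialyl Lewis X, the selectin ligand of activated T cells, was below the median level on all arrays, at 6.07 and 5.96 in Ifitm-/- cells and 5.71 and 5.74 in WT cells (adjusted p = 0.122).

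In 3 members, singled out after their values were seen, 1 array stood apart from its replicate. B3gnt5, which starts lacto-series glycolipids, read 7.16 and 7.30 in Ifitm-/- cells, against 8.24 and 6.99 in WT cells. Galnt3 read 6.26 and 7.04 in Ifitm-/- cells, against 6.72 and 6.30 in WT cells. B4galt6, a lactosylceramide synthase, read 5.28 and 6.05 in Ifitm-/- cells, against 5.61 and 5.17 in WT cells. The first was high on the WT replicate 1 array and the other two on the Ifitm-/- replicate 2 array.

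Markers of other cell types also moved, some between single arrays and some between genotypes. The mean level of 7 measured B cell markers was 7.98 and 8.38 in Ifitm-/- cells, against 9.64 and 8.04 in WT cells, so it was highest on the same WT array as B3gnt5, and limma called 0 of the 7 (0 at an unadjusted p under 0.05). The mean of 4 platelet markers was 9.15 and 10.47 in Ifitm-/- cells, against 8.99 and 8.54 in WT cells, highest on the same Ifitm-/- array as Galnt3 and B4galt6, and limma called 0 of the 4 (1 at an unadjusted p under 0.05). Of 5 plasma cell markers, 1 was lower (Derl3) and all 5 had negative changes, with means of 7.44 and 7.54 in Ifitm-/- cells, against 8.45 and 8.09 in WT cells. In all 5 both Ifitm-/- arrays lay below both WT arrays (30.8% of all genes). By limma all 5 had an unadjusted p under 0.05 (25.8% of all genes). Means were 5.77 and 6.01 in Ifitm-/- cells, against 5.31 and 5.27 in WT cells, for 5 neutrophil markers, of which Retnlg was higher, and 8.43 and 8.21 in Ifitm-/- cells, against 8.27 and 7.86 in WT cells, for 5 NK cell markers. Of these, Nkg7 was lower, while Klrd1, Klrb1c and Ncr1, none of them called, had both Ifitm-/- arrays above both WT arrays, with changes of 1.11, 0.58 and 0.75 (adjusted p = 0.0683, 0.0837 and 0.189), and the median change of the list was 0.58. The mean of 3 erythroid markers was 10.64 and 10.50 in Ifitm-/- cells, against 9.08 and 10.11 in WT cells. Slc4a1 and Ermap were lowest on the WT replicate 1 array (9.24 and 7.15), while Alas2 was highest there (10.85). No marker of 6 myeloid, 3 erythroid and 2 CD8 T cell markers was called by limma (1, 0 and 1 with an unadjusted p under 0.05). Means of the myeloid markers were 8.01 and 8.79 in Ifitm-/- cells, against 8.56 and 7.91 in WT cells. They too were highest on the Ifitm-/- replicate 2 array and next on the WT replicate 1 array, the order of the arrays in Galnt3 and B4galt6, which the platelet markers did not have, and the neutrophil means above were also highest on the Ifitm-/- replicate 2 array. Single myeloid markers differed in this, with Lyz2, Fcgr3 and Cd14 highest on the Ifitm-/- replicate 2 array but Csf1r, Itgam and Cybb on the WT replicate 1 array. Lyz2 also had both Ifitm-/- arrays above both WT arrays (change 1.34, adjusted p = 0.0942). Means of the CD8 T cell markers were 7.21 and 7.24 in Ifitm-/- cells, against 7.68 and 7.14 in WT cells. Markers with the highest mean of their list were Cd74 for B cells, Jchain for plasma cells, Cd8b1 for CD8 T cells, Nkg7 for NK cells, Csf1r for myeloid cells, Retnlg for neutrophils, Slc4a1 for erythroid cells and Ppbp for platelets, with changes from -0.89 (Nkg7, adjusted p = 0.0321) to 1.83 (Retnlg, adjusted p = 0.0136) among the called ones and none of the other 6 called.

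Of the list of CD4 T cell markers, 5 were measured, and the mean of this list does not tell CD4 T cells from other T cells. The mean of the 5 was 11.65 and 11.62 in Ifitm-/- cells, against 11.27 and 11.31 in WT cells. Among these, Cd3d and Cd3g, which encode chains of the T cell receptor complex, were each higher by 0.59 in Ifitm-/- cells (adjusted p = 0.0284 and 0.0304). The list's member of highest mean, Cd3e, had a change of -0.01 (adjusted p = 0.962). Cd4 itself read 11.79 and 11.71 in Ifitm-/- cells, against 11.44 and 11.52 in WT cells (change 0.27, adjusted p = 0.141). Cd5 differed by 0.28 (adjusted p = 0.145), and neither Cd4 nor Cd5 was called. The difference of Cd3d and Cd3g ran in the direction of the 7 higher members. The part of any of these cell types in the members' values was not tested.

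**Figure D3:**
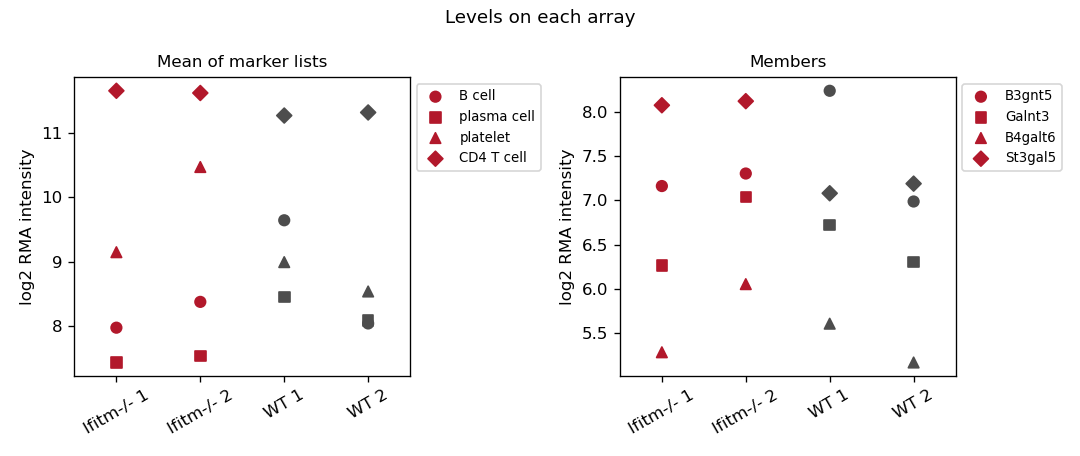
Levels (log2 RMA intensity) on each of the 4 arrays, Ifitm-/- in red and WT in grey, as means of 4 marker lists on the left and of 4 members on the right. B cell markers and B3gnt5 are highest on WT replicate 1, platelet markers, Galnt3 and B4galt6 on Ifitm-/- replicate 2, while St3gal5 separates the genotypes.

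The enzymes depend on sugar donors, transporters and Golgi structure, and 125 genes of 8 such lists were measured. Of these, 17 were higher and 9 lower in Ifitm-/- cells (20.8%), with a median change of 0.02. At or above the median level, where 106 of the 125 lay, 15.2% of genes were called (8.72% higher and 6.52% lower). Over all genes 8.57% were called, and the 20.8% also counts the 19 genes below that level. The lists were chosen with earlier results of these data known, so the share is no test of them. Counts of each list below are to be read against the same shares.

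Among 28 other glycosyltransferases, 4 were higher and 1 was lower. Lfng (Lunatic fringe), which adds a sugar to O-fucose on Notch receptors, had levels of 10.89 and 10.97 in Ifitm-/- cells, against 9.54 and 9.35 in WT cells (change 1.49 or 2.80-fold, adjusted p = 0.0141). C1galt1, the core 1 synthase whose product St3gal1 and Gcnt1 compete for, read 9.98 and 9.99 in Ifitm-/- cells, against 9.46 and 9.30 in WT cells (change 0.60, adjusted p = 0.0379). Xylt2, which starts glycosaminoglycan chains, and Poglut1, which adds O-glucose to Notch, were higher by 0.53 and 0.50 (adjusted p = 0.0429 and 0.0433), and both calls were lost with renewed quantile normalization (adjusted p = 0.0539 and 0.0525). Ugcg, whose product makes the glucosylceramide from which gangliosides are built, was lower by 0.49 on the log2 scale (adjusted p = 0.0434), a gene named after its value was seen.

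Sialic acid is made and modified by genes of 2 of these lists. Gne, the gene of the enzyme that starts sialic acid synthesis, read 8.97 and 8.91 in Ifitm-/- cells, against 8.50 and 8.35 in WT cells (change 0.51, adjusted p = 0.0498), and the call was lost with robust eBayes (adjusted p = 0.051) and renewed quantile normalization (adjusted p = 0.0518). Casd1, which acetylates sialic acid, and Siae, which removes the acetyl groups, were both higher, by 0.72 and 0.82 (adjusted p = 0.0239 and 0.0402), the called genes among 8 of sialidases and sialic acid modification. Elsewhere among 19 genes of sugar nucleotide synthesis, Gnpnat1 was higher by 0.76 and Uap1 lower by 0.78 (adjusted p = 0.0449 and 0.0299), although both act in the synthesis of UDP-N-acetylglucosamine. The call of Gnpnat1 was lost with renewed quantile normalization (adjusted p = 0.0505).

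Of 13 Golgi sugar nucleotide transporters, 3 were higher and 2 lower. Slc35c1, the GDP-fucose transporter, was higher by 0.90 (adjusted p = 0.0223), as were Slc35d2 by 0.80 (adjusted p = 0.0212) and Slc35a5 by 1.34 (adjusted p = 0.0373), while Slc35d1 was lower (change -0.92, adjusted p = 0.018). Slc35e1, the remaining call, named after its value was seen, had a change of -0.49. None of 13 N-glycan trimming genes was called by limma, and 4 had an unadjusted p under 0.05. All 13 were at or above the median level, where 4264 of 10494 genes had such a p. Of 14 glycan sulfotransferases, Chst2, which sulfates N-acetylglucosamine in lactosamine chains, was at 6.75 and 6.65 in Ifitm-/- cells, against 8.25 and 8.36 in WT cells, 3.04-fold lower (adjusted p = 0.0131), and Chst12, a chondroitin sulfotransferase, was higher by 0.63 (adjusted p = 0.0411).

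Among 12 glycoprotein carriers and lectins, 3 were higher and 2 lower. Spn (CD43), a heavily sialylated mucin of T cells, read 9.55 and 9.38 in Ifitm-/- cells, against 8.70 and 8.88 in WT cells (change 0.68, adjusted p = 0.0418). Clec2d, a lectin-like ligand of an NK cell receptor, was 3.15-fold higher (adjusted p = 0.0141), and Lgals9 (galectin-9), named after its value was seen, was higher by 0.69 (adjusted p = 0.0459). Cd44, the hyaluronan receptor that rises on activated T cells, and Emb were lower, with changes of -0.79 and -0.80 (adjusted p = 0.0345 and 0.0187). Of 18 genes of Golgi tethering and retention, Golph3 and its paralog Golph3l, whose products hold glycosyltransferases in the Golgi, went in opposite directions. Golph3l read 10.10 and 10.08 in Ifitm-/- cells, against 8.99 and 9.01 in WT cells, 2.13-fold higher (adjusted p = 0.0141), and Golph3 read 9.11 and 9.14 in Ifitm-/- cells, against 9.72 and 9.80 in WT cells (change -0.63, adjusted p = 0.0273), a call lost when all probe sets of the gene were averaged (adjusted p = 0.113). Tmem165, needed for manganese supply to the Golgi, was higher by 0.64 (adjusted p = 0.0391), and Gorasp2 lower by 0.60 on the log2 scale (adjusted p = 0.0468), a call lost with median centring (adjusted p = 0.0585).

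**Figure D4:**
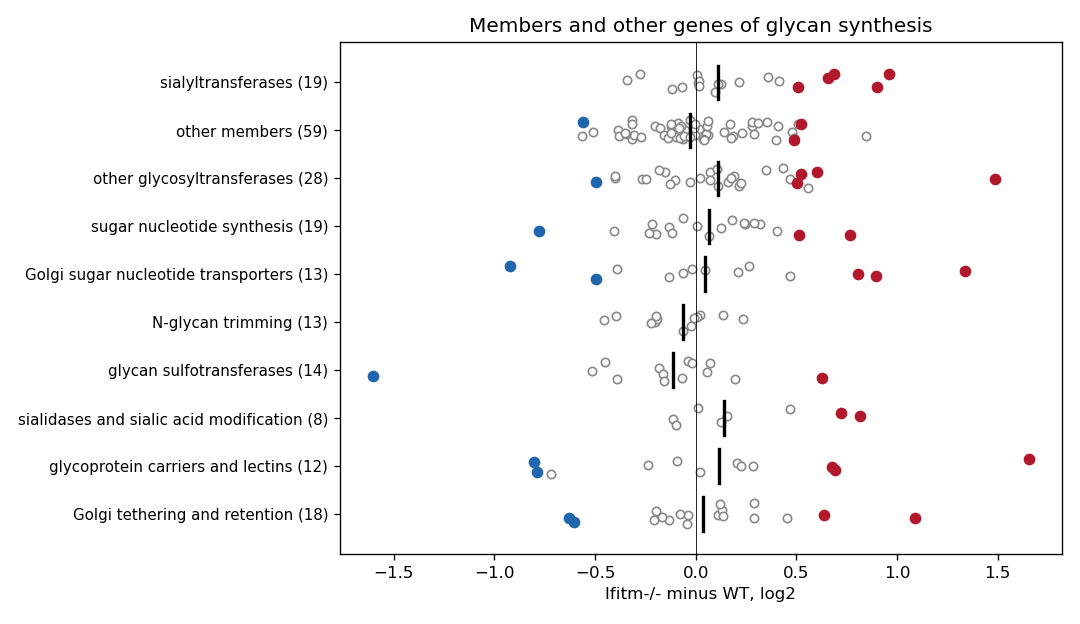
Change (log2, Ifitm-/- minus WT) of the sialyltransferases, the other members and the 8 related lists, 1 point per gene, with the number measured in parentheses and a bar at the median. Red points were called higher and blue lower in Ifitm-/- cells, and open points were not called. Medians lie between -0.11 and 0.14, and called genes of both directions stand in 6 of the 8 related lists.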

How the data were processed

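RNA of resting CD4+ T cells was measured on 4 arrays, 2 Ifitm-/- and 2 WT, grouped by genotype in the labels. The deposited intensities were made by the authors with RMA (named with affy in the submitters' processing notes, versions not given in the sources used here). They are linear, and their log2 was taken here. RMA includes quantile normalization, so changes are relative to each whole array. limma 3.58.1 in R 4.3.3 (lmFit, eBayes, no covariate) tested all 34760 probe sets, with 2 residual and 2.39 prior degrees of freedom. The number of arrays limits the precision.

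The platform annotation gave 21640 of the probe sets a single gene, 11799 no gene and 1321 more than 1, and 21553 of the single-gene ones were found in a RefSeq gene table (GRCm38.p6). Genes without a probe set of their own were not analysed here. Named genes were all called members, the member of highest mean per family, the 5 largest changes not called at or above the median level, and up to 4 called genes of smallest p per related list. Others were named after their values were seen. Members and lists were chosen with earlier results of these data known. Labels give replicate numbers but no pairing between genotypes, and deviations of same-numbered arrays correlated at -0.124.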

Additional observations from a re-analysis of the deposited data

How the results depend on the processing

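With no array left out, 2930 probe sets, 1708 genes, 8 members and 5 sialyltransferases were called. Counts stayed within 1.5 times of these with trend or robust eBayes, renewed quantile normalization, median centring and log2(value + 16), and the 8 called members were kept in each. Without dim probe sets 2577 genes and 14 members were called, and with only probe sets of 1 gene 2790 and 13. With the mean of all probe sets of a gene 12 members were called, 6 of the 8 among them. An unpaired t-test on log2 values gave 6811 probe sets, 4340 genes, 18 members and 8 sialyltransferases unadjusted, and 4, 2, 0 and 0 after Benjamini-Hochberg adjustment. The study names an unpaired t-test for its general statistics, but found its differentially expressed array genes with moderated statistics. With a fold over 2 and a range of 250 the counts were 403, 256, 0 and 0. With the replicate block limma called 0 in all 4 counts (8016 probe sets and 22 members at an unadjusted p under 0.05, smallest adjusted p 0.0624), but the samples share only a number. The crossed pairing, chosen after seeing the data, gave 975, 514, 1 and 1. Without 1 array the counts were 0 to 0 (6062 to 9107 probe sets and 15 to 23 members at an unadjusted p under 0.05). The members' median change was 0.057 with median centring, 0.17 without dim probe sets and with only members at or above the median, and -0.027 to 0.040 without 1 array, negative only without WT replicate 1. Causes of these differences were not tested. No result reversed with a call. Over 43 named genes, 42 kept their side of the threshold with robust eBayes, 41 with trend and 38 with renewed quantile normalization.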

Other observations

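Read along the pathways, an order set after the values were seen, called genes stood at separate steps. From ceramide to gangliosides, Ugcg was lower (-0.49), B4galt5, which makes lactosylceramide, differed by 0.02 (adjusted p = 0.924), St3gal5 was higher (0.96), St8sia1 differed by 0.11 (adjusted p = 0.453), B4galnt1, which makes GM2, read 11.59 and 11.49 in Ifitm-/- cells, against 11.17 and 11.21 in WT cells (0.35, adjusted p = 0.0848), and B3galt4 was higher (0.49). Along O-glycans, C1galt1, St3gal1 and St6galnac1 were higher (0.60, 0.69 and 0.90), and no Galnt gene was called. The second, dimmer probe set of St3gal1 had a change of -0.13 and was not called. Gcnt1 differed by 0.84 and just missed the threshold (adjusted p = 0.0521). C1galt1c1, the chaperone of the core 1 synthase, differed by 0.47 (adjusted p = 0.0671) and, unlike the members, lies on X. For the sialic acid supply, Gne was higher, Nans and Cmas, which act after it, differed by -0.13 and -0.40 (adjusted p = 0.36 and 0.0815), and Slc35a1, the CMP-sialic acid transporter, by 0.47 (adjusted p = 0.0933).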
